A study of Homo sapiens with 38 samples.

Results

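The transcripts of 9 splicing regulators were followed in nuclear and cytoplasmic RNA of HCT116, an established cell line from a human colorectal carcinoma, and of 4 lines derived from it by gene editing. The 9 genes were chosen by name, as members of the PTB, muscleblind-like, STAR, RBFOX and CELF families of RNA-binding proteins, and are PTBP1, PTBP2, PTBP3, MBNL1, MBNL2, MBNL3, QKI, RBFOX2 and CELF1. They are 9 of 58425 genes with a matched transcript, and the estimated reads and TPM of their 132 transcripts were summed per gene. All 9 passed the filter on low counts in both fractions. The edited genotypes were AGO1-/-, AGO2-/-, AGO1-/- with AGO2-/- (AGO1/2), and AGO1-/- with AGO2-/- and AGO3-/- (AGO1/2/3), each set against wild-type cells, and all were grown in the same serum-containing medium. Each of the 5 genotypes gave 3 nuclear and 3 cytoplasmic libraries (30 in all), numbered by passage, and the question was how the loss of Argonaute proteins bears on nuclear and cytoplasmic RNA. Each genotype was a single line. Wild-type cells were at passages 27 to 29 and edited cells at passages 6 to 14, so knockout, clone and passage cannot be told apart.

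Alternative splicing of tissue-specific exons is set by a small group of RNA-binding proteins that recognise short sequences in and near the exon. PTBP1 binds pyrimidine-rich RNA and mostly represses exons outside the nervous system. Its paralog PTBP2 takes over in developing neurons, and PTBP1 keeps PTBP2 low elsewhere by skipping an exon of 34 nt, which shifts the reading frame and sends the transcript to nonsense-mediated decay. MBNL proteins promote adult splicing patterns in muscle, heart and brain, QKI acts in glia, muscle and epithelial-mesenchymal transition, RBFOX2 binds TGCATG and either promotes or represses an exon according to its position, and CELF1 opposes MBNL proteins on many exons. Several of these proteins regulate exons in their own transcripts and in those of their paralogs.

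The genes lie apart in the genome (hg38). PTBP1 (chr19:797075-812327, + strand, 20 transcripts), PTBP2 (chr1:96721665-96823738, + strand, 11 transcripts) and PTBP3 (chr9:112217716-112333664, - strand, 8 transcripts) form the PTB family. MBNL1 (chr3:152243828-152465780, + strand, 24 transcripts), MBNL2 (chr13:97221434-97394120, + strand, 6 transcripts) and MBNL3 (chrX:132369320-132489968, - strand, 11 transcripts) form the muscleblind-like family. QKI (chr6:163414000-163578592, + strand, 17 transcripts), RBFOX2 (chr22:35738736-36028824, - strand, 14 transcripts) and CELF1 (chr11:47465933-47565569, - strand, 21 transcripts) stand for 1 family each.

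Printed here are the exons through which the PTB and muscleblind-like families regulate their own transcripts. With them are the 2 exons, among those of the members and the listed targets, whose nuclear inclusion was called in both lines lacking AGO1 and AGO2. The exon is in capitals and 20 bases of intron on each side in lower case, on the transcript's strand (hg38, from the GENCODE annotation). The 34 nt exons of PTBP1 (chr19:807869-807902, + strand) and PTBP2 (chr1:96806419-96806452, + strand) match at 25 of 34 positions (73.5%).
PTBP1 34 nt exon: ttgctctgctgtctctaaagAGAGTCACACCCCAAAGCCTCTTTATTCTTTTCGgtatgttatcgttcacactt
PTBP2 34 nt exon: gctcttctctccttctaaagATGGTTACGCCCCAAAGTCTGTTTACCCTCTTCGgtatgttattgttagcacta
The 54 nt exons of MBNL1 (chr3:152446704-152446757, + strand) and MBNL2 (chr13:97356796-97356849, + strand) match at 45 of 54 positions (83.3%), and the 36 nt exons (chr3:152455542-152455577 and chr13:97365136-97365171, both + strand) at 31 of 36 (86.1%). The 54 nt exon of MBNL1 is known to steer the protein to the nucleus.
MBNL1 54 nt exon: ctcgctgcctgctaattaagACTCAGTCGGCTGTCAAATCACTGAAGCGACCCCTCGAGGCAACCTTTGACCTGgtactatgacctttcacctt
MBNL2 54 nt exon: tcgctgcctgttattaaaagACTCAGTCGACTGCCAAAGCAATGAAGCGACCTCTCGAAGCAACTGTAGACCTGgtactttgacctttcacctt
MBNL1 36 nt exon: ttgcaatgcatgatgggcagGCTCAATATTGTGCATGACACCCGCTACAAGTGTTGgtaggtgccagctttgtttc
MBNL2 36 nt exon: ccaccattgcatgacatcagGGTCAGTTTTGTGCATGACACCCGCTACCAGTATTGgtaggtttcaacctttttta
The 117 nt exon of QKI (chr6:163478780-163478896, + strand) and the 81 nt exon of MAP3K7 (chr6:90544552-90544632, - strand), the kinase TAK1, are the member and target exons called in both lines.
QKI 117 nt exon: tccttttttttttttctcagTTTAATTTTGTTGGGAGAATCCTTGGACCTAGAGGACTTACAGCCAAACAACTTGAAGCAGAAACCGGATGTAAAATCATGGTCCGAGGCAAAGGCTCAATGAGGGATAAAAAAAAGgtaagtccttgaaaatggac
MAP3K7 81 nt exon: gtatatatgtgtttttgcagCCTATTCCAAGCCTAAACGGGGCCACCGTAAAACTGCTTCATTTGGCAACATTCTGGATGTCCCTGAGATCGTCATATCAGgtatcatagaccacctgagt
Of these 8 exons, those of PTBP1 and PTBP2 shift the reading frame when skipped and the other 6 keep it. Each lies wholly within the coding sequence of every protein-coding transcript that holds it.

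Estimated reads per library ran from 20431557 to 54097984 in nuclear RNA and from 39476205 to 79731793 in cytoplasmic RNA, and wild-type libraries were the shallowest in each fraction. AGO1 TPM lay between 2.39 and 4.13 in nuclei of the 3 lines edited at AGO1, against 9.34 to 12.6 in wild-type nuclei, and between 0.807 and 1.02 in their cytoplasm, against 10.7 to 14.4. AGO2 ranged from 24.5 to 41.2 TPM in nuclei of the 3 lines edited at AGO2 and from 46.0 to 57.8 in wild-type nuclei. In nuclei of the AGO1 line, not edited at AGO2, it ranged from 40.5 to 52.5 TPM and overlapped both. AGO3 ranged from 13.7 to 16.1 TPM in AGO1/2/3 nuclei, like the 13.4 to 16.2 of the other 3 edited lines and below the 18.2 to 23.3 of wild-type nuclei, so that its transcript level did not tell the AGO3-edited line apart. Of 9 colon epithelial markers 5 had a median over 1 TPM in each fraction (EPCAM, KRT8, KRT18, CDH1 and CDX2), and CDX1 was at 0 in all libraries. The summed nuclear level of the colon markers was 964 to 1033 TPM in wild-type, 1994 to 2244 in AGO1/2 and 1570 to 1809 in AGO1/2/3 cells, while the cytoplasmic level was 971 to 1060 in wild-type and 639 to 735 in AGO1/2 cells. KRT8 (421 to 1265 TPM) and KRT18 (280 to 906) were by far the highest of them in nuclei. The sum therefore follows mainly these keratins and does not describe the marker set as a whole. Of 8 neuron markers 2 had a median over 1 TPM in each fraction (SYT1 and GRIN1), SNAP25 passed 1 TPM in 3 nuclear libraries, with STMN2 and NEFL at a median of 0. The summed nuclear level of the neuron markers lay between 38.1 and 42.8 TPM for wild type and between 10.1 and 12.9 for AGO1/2. SYT1 was by far the highest of them in nuclei (6.21 to 39.1 TPM), with GRIN1 next (0.807 to 2.95). This sum therefore follows mainly SYT1. No skeletal muscle marker had a median over 1 TPM, although DES passed 1 TPM in 7 libraries of each fraction (up to 5.34) and TTN in 6 nuclear libraries (up to 5.32), and MYOD1, MYOG, MYH7 and CKM were at a median of 0. What part these marker levels have in the results below was not tested. MALAT1, a nuclear RNA, had a median of 1683 TPM in nuclear and 124 in cytoplasmic libraries. NEAT1, also nuclear, had medians of 68.5 and 5.26 TPM. GAPDH, listed as the cytoplasmic marker, separated the fractions little, with medians of 1675 TPM in nuclear and 1932 in cytoplasmic libraries and overlapping ranges. Wild-type passage 29 stood apart from the other 2 wild-type libraries, by a root mean square log2 distance of 0.403 in nuclear and 0.392 in cytoplasmic RNA, against 0.16 to 0.283 for the 28 other libraries. Leaving it out changed the counts of called members in the 8 knockout comparisons from 6, 5, 8 and 6 to 5, 6, 8 and 6 in nuclei and from 2, 3, 5 and 5 to 2, 3, 7 and 6 in cytoplasm (the 2 single knockouts first, then AGO1/2 and AGO1/2/3).

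In wild-type nuclei the members fell into 4 tiers on the TPM scale, which corrects for transcript length. PTBP1 (100.4 to 139 TPM) and MBNL1 (97.4 to 133) were highest and overlapped each other. CELF1 (45.3 to 61.1) and RBFOX2 (37.8 to 42.3) followed, without overlap. PTBP2 (19.7 to 23.1), MBNL2 (18.7 to 25.0), PTBP3 (17.4 to 20.9) and QKI (17.2 to 19.3) formed a lower tier in which neighbours overlapped, and MBNL3 was lowest (1.11 to 1.33). In wild-type cytoplasm PTBP1 (107 to 147), MBNL1 (58.5 to 82.5) and CELF1 (32.3 to 41.3) again led, while PTBP2 stood lower in the order, at 2.47 to 3.45 TPM, below QKI (13.3 to 14.3) and above MBNL3 (1.83 to 2.20).

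PTBP2 was the member with the strongest nuclear excess. Its nuclear level was 22, 23.1 and 19.7 TPM in the 3 wild-type libraries and its cytoplasmic level 3.45, 3.14 and 2.47 TPM. The groups did not overlap, and the log2 ratio of nuclear to cytoplasmic counts was 2.92 ± 0.12 (SE, adjusted p = 1.8e-17). The ratio was also above 0 and called in the other 4 genotypes, from 1.68 in AGO1/2 cells to 2.30 in AGO1 cells, and on the TPM scale it lay between 1.88 and 2.5. PTBP3 showed the opposite sign, with a log2 ratio of -1.06 ± 0.06 (SE, adjusted p = 2.8e-14) in wild-type cells and calls in all 5 genotypes, although on the TPM scale the AGO1/2 value was 0.03. Of the 9 members, 6, 8, 7, 8 and 6 were called between the fractions in wild-type cells, the AGO1 and the AGO2 line, and the AGO1/2 and the AGO1/2/3 line. Among all genes 76.8%, 74.5%, 73.4%, 68.6% and 70.2% were called, so the members' shares lay near that background. The CELF1 call by counts in AGO1/2 cells was lost without cytoplasmic passage 9 or 10 or nuclear passage 10 of that line (0.088 to 0.13). For RBFOX2 and MBNL1 the sign of the nuclear to cytoplasmic difference depended on the scale in every genotype. RBFOX2 was at -0.34 by counts and 0.34 by TPM in wild-type cells, and MBNL1 at -0.14 and 0.73. The median of all genes itself moved from 0.04 by counts to 0.29 by TPM in that comparison, and from 0.09 to 0.48 in AGO1/2 cells.

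**Figure D1:**
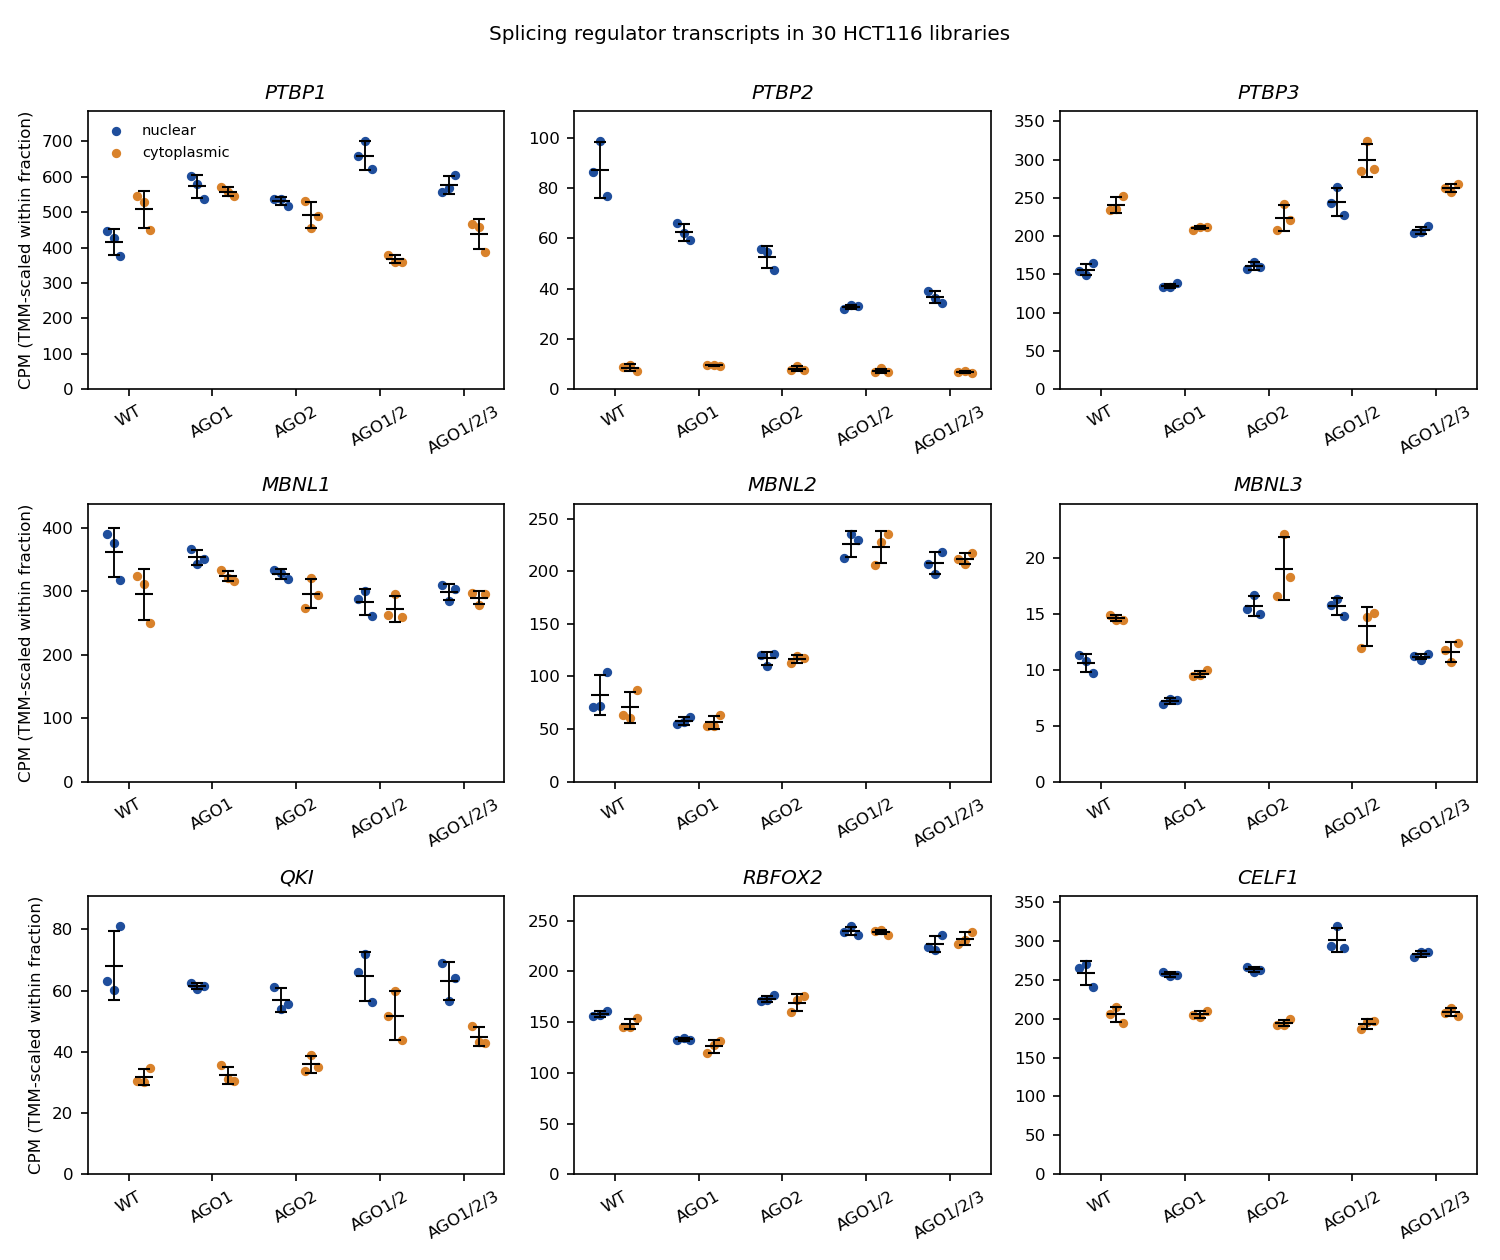
Level of each regulator in the 30 libraries, in CPM scaled by TMM within each fraction (y axis), by genotype (x axis). Points are libraries in passage order, horizontal bars the mean of 3 and vertical bars the SD; nuclear (blue) and cytoplasmic (orange) values were scaled separately and are not to be compared with each other. MBNL2 and RBFOX2 stand highest in AGO1/2 and AGO1/2/3 cells in both fractions, and PTBP2 falls in nuclei of all 4 edited lines.

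Counts per unit of library size (CPM) scaled within a fraction were used to compare genotypes. The TPM scale is given beside them, since it moved the median over all genes (log2) from between -0.06 and -0.02 to between -0.17 and -0.07 in nuclei and from between -0.01 and -0.0012 to between -0.20 and -0.08 in cytoplasm. A TPM value near those medians is no change relative to other genes. PTBP1, the repressor, was higher in the nuclei of every edited line. In these bulk libraries less RNA per cell and fewer cells that hold it cannot be told apart. The 3 wild-type nuclear libraries held 446, 428 and 375 CPM, the AGO1/2 libraries 658, 701 and 621 and the AGO1/2/3 libraries 557, 569 and 606. No edited library overlapped the wild-type ones. The log2 fold changes against wild type were 0.46 ± 0.07 (SE, adjusted p = 0.0003) in AGO1, 0.35 ± 0.07 (SE, adjusted p = 0.0013) in AGO2, 0.66 ± 0.07 (SE, adjusted p = 9.9e-07) in AGO1/2 and 0.47 ± 0.07 (SE, adjusted p = 4.6e-05) in AGO1/2/3 nuclei (edgeR). On the TPM scale all 4 stayed positive but only the AGO1/2 value (0.59) was called, the others being 0.20, 0.08 and 0.23. In cytoplasm PTBP1 was lower in AGO1/2 cells, going from 545, 529 and 449 CPM in wild type to 379.8, 360.2 and 360.1, a log2 fold change of -0.47 ± 0.09 (SE, adjusted p = 0.00038). The AGO1/2/3 cytoplasmic value was -0.22 and overlapped wild type (adjusted p = 0.06), while the TPM scale put both values past the threshold (-0.85 and -0.46). The difference between the nuclear and the cytoplasmic effect, tested as an interaction over both fractions, was 1.06 ± 0.12 (SE, adjusted p = 3.2e-07) for AGO1/2 and 0.60 ± 0.12 (SE, adjusted p = 0.00074) for AGO1/2/3. The nuclear to cytoplasmic log2 ratio of PTBP1 counts stood at -0.72 for wild-type and 0.34 for AGO1/2 cells, both called, while the TPM scale gave -0.13, not called, and 1.31.

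PTBP2, the neuronal paralog, was lower in the nuclei of all 4 edited lines. Wild-type nuclei held 86.2, 98.7 and 76.8 CPM, AGO1 nuclei 66.0, 62.2 and 59.2 and AGO2 nuclei 55.6, 54.6 and 47.6. AGO1/2 nuclei held 31.8, 33.5 and 32.9 and AGO1/2/3 nuclei 39.1, 36.4 and 34.4. Every edited library lay below every wild-type library, and the lines edited at both AGO1 and AGO2 lay below the singly edited ones. The log2 fold changes of PTBP2 were -0.48, -0.73, -1.41 and -1.25 in nuclei of the AGO1 and AGO2 lines and of the AGO1/2 and AGO1/2/3 lines (SE 0.09 each, edgeR adjusted p from 3.2e-09 to 0.00083), and the TPM scale gave calls in all 4 (-0.44, -0.79, -1.119 and -1.08). In cytoplasm, where the level was low (6.37 to 9.72 CPM over all 15 libraries), only the AGO1/2/3 line was called by counts, at -0.35 ± 0.12 (SE, adjusted p = 0.033). The TPM scale called both AGO1/2 (-0.54) and AGO1/2/3 cytoplasm (-0.47). The call by counts was lost without any one of wild-type passages 27 and 28 or AGO1/2/3 passages 11 and 14, with values from -0.33 to -0.24. The nuclear minus the cytoplasmic effect was -0.66, -1.23 and -0.99 on the log2 scale in AGO2, AGO1/2 and AGO1/2/3 cells, each past the interaction test, and -0.61 in AGO1 cells, which was not (adjusted p = 0.055). The AGO2 interaction was lost without cytoplasmic AGO2 passage 9 (-0.56).

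PTBP3, the third paralog, rose in nuclei where both AGO1 and AGO2 were edited. Wild-type nuclei held 154, 149.6 and 164 CPM, AGO1/2 nuclei 243, 265 and 228 and AGO1/2/3 nuclei 204, 205 and 213, without overlap. The log2 fold changes were 0.65 ± 0.06 (SE, adjusted p = 1.9e-07) and 0.41 ± 0.06 (SE, adjusted p = 3.0e-05), where the TPM scale gave a call in AGO1/2 (0.66) and none in AGO1/2/3 cells (0.24). In AGO1 nuclei PTBP3 was lower (-0.21 ± 0.06, SE, adjusted p = 0.018), a call lost without AGO1 passage 6, AGO1 passage 7 or wild-type passage 29 (-0.19 to -0.16). In cytoplasm only the AGO1/2 line was called by counts (0.31 ± 0.07, SE, adjusted p = 0.0014). On the TPM scale that value was -0.01, and the AGO1 and AGO2 lines were called lower (-0.26 and -0.31). The AGO1/2 interaction of 0.26 was called, and the call was lost without nuclear AGO1/2 passage 10 (0.20).

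MBNL2 gave the largest rise of the 9 genes. Wild-type nuclei held 71.4, 71.7 and 105 CPM, AGO1/2 nuclei 212, 236 and 229.9 and AGO1/2/3 nuclei 207, 197 and 219. In cytoplasm the values were 63.4, 60.8 and 87.5 in wild type, 206, 227 and 235 in AGO1/2 and 212, 207 and 217 in AGO1/2/3 cells. Wild-type passage 29 was the highest of its group in both fractions and still lay below every library of these lines. The nuclear log2 fold changes were 1.45 ± 0.12 (SE, adjusted p = 4.0e-08) for AGO1/2 and 1.33 ± 0.12 (SE, adjusted p = 1.6e-07) for AGO1/2/3, and the cytoplasmic ones 1.66 ± 0.12 (SE, adjusted p = 6.4e-08) and 1.59 ± 0.12 (SE, adjusted p = 1.4e-07). The singly edited lines moved apart. In AGO2 cells MBNL2 rose by 0.51 in nuclei and 0.72 in cytoplasm on the log2 scale, and in AGO1 nuclei the log2 fold change was -0.51 ± 0.12 (SE, adjusted p = 0.0041), with -0.33 in AGO1 cytoplasm not called (adjusted p = 0.08). Tested directly, AGO2 cells exceeded AGO1 cells by 1.02 ± 0.12 (SE, adjusted p = 1.3e-05) in nuclei and 1.05 ± 0.12 (SE, adjusted p = 1.3e-05) in cytoplasm. The TPM scale kept the direction of each of these values and also called AGO1 cytoplasm (-0.46).

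MBNL1 was lower in nuclei of the lines in which MBNL2 was highest. MBNL1, the most abundant of the family, went from 391, 376 and 318 CPM in wild-type nuclei to 288, 301 and 261 in AGO1/2 and 310.1, 285 and 303 in AGO1/2/3 nuclei. Neither group overlapped wild type, and the log2 fold changes were -0.35 and -0.27 (adjusted p = 0.00072 and 0.0058), the second call being lost without wild-type passage 27 (-0.18), and no cytoplasmic comparison with wild type was called by counts. On the TPM scale the nuclear falls were larger, -0.77 and -0.77. The TPM scale also called MBNL1 lower in AGO1 (-0.35) and AGO2 nuclei (-0.47) and in AGO1/2 cytoplasm (-0.45). MBNL3, the least abundant, differed between the singly edited lines. Its nuclear level was 11.3, 10.8 and 9.75 CPM in wild type, 6.92, 7.38 and 7.34 in AGO1 and 15.4, 16.7 and 15.0 in AGO2 cells, with no overlap among the 3 groups. The log2 fold changes were -0.56 ± 0.08 (SE, adjusted p = 0.00015) and 0.56 ± 0.08 (SE, adjusted p = 5.2e-05), and AGO2 exceeded AGO1 cells by 1.124 ± 0.08 (SE, adjusted p = 6.7e-08) in nuclei and 0.98 in cytoplasm, also called. On the TPM scale the nuclear values against wild type were -0.30, called, and 0.24, not called. MBNL3 was also higher in AGO1/2 nuclei, by 0.56 ± 0.08 (SE, adjusted p = 1.0e-05) on counts and 0.41, called, on the TPM scale. AGO1/2/3 nuclei differed from AGO1/2 nuclei by -0.49 (adjusted p = 0.0062). In cytoplasm MBNL3 was called by counts in AGO1 (-0.60), AGO2 (0.38) and AGO1/2/3 cells (-0.33). By TPM the AGO2 value was 0.16 and not called, and AGO1/2 cytoplasm was called at -0.39. The AGO2 call by counts was lost without AGO2 passage 9 (0.26) or wild-type passage 28 (0.37), and the AGO1/2/3 call without AGO1/2/3 passages 11 or 12 or wild-type passages 27 or 28 (-0.34 to -0.27).

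QKI was higher in the cytoplasm of lines lacking both AGO1 and AGO2 and was not called in any nuclear comparison with wild type. Wild-type cytoplasm held 30.6, 30.2 and 34.8 CPM, AGO1/2 cytoplasm 51.8, 59.9 and 43.9 and AGO1/2/3 cytoplasm 48.5, 43.2 and 43.0, without overlap. The log2 fold changes were 0.70 ± 0.11 (SE, adjusted p = 8.7e-05) and 0.50 ± 0.11 (SE, adjusted p = 0.0021), and on the TPM scale 0.27, called, and 0.25, not called. Nuclear values overlapped wild type in all 4 lines, with log2 fold changes between -0.26 and -0.07. The interaction was -0.85 ± 0.15 (SE, adjusted p = 0.00011) for AGO1/2 and -0.68 ± 0.15 (SE, adjusted p = 0.0022) for AGO1/2/3 by counts, and -0.14 and -0.34, neither called, by TPM. The nuclear to cytoplasmic log2 ratio by counts was 0.66 in wild-type cells (called) and -0.19 in AGO1/2 cells (not called), and by TPM 0.38 and 0.24, the second of opposite sign and not called.

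RBFOX2 rose in both fractions of the 2 lines lacking AGO1 and AGO2, with tight replicates. Wild-type nuclei held 156, 157 and 161 CPM, AGO1/2 nuclei 239, 245 and 236 and AGO1/2/3 nuclei 224, 221 and 235. Wild-type cytoplasm held 145, 145 and 154 CPM, AGO1/2 cytoplasm 240.0, 241 and 236 and AGO1/2/3 cytoplasm 227, 231 and 239. No library of the 2 lines overlapped wild type. The nuclear log2 fold changes were 0.60 ± 0.05 (SE, adjusted p = 2.9e-08) and 0.52 ± 0.05 (SE, adjusted p = 2.0e-07), and the cytoplasmic ones 0.69 ± 0.06 (SE, adjusted p = 2.6e-07) and 0.65 ± 0.06 (SE, adjusted p = 6.9e-07). On the TPM scale they were smaller, 0.35 and 0.09 in nuclei, the second not called, and 0.12, not called, and 0.25 in cytoplasm. AGO1 cells were lower in both fractions (-0.25 in nuclei and -0.23 in cytoplasm), the cytoplasmic call being lost without AGO1 passage 6 or 7 (-0.24 to -0.19). In AGO2 cells counts gave 0.13 in nuclei and 0.19 in cytoplasm, both called, while TPM gave -0.21 and -0.14, so no direction is given there. These 2 calls were also lost without AGO2 passages 8 or 10 in nuclei (0.12 to 0.14) and without AGO2 passages 9 or 10 or wild-type passages 27 or 28 in cytoplasm (0.16 to 0.18). The AGO1/2/3 interaction of -0.21 was lost without any one of cytoplasmic wild-type passages 27 and 28, cytoplasmic AGO1/2/3 passage 14 and nuclear AGO1/2/3 passage 12 (-0.20 to -0.18).

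CELF1 ranged from 241 to 319 CPM over the nuclear and from 186 to 215 CPM over the cytoplasmic libraries. Wild-type nuclei held 265, 270.1 and 241 CPM and AGO1/2 nuclei 293, 319 and 291, the only pair of groups called against wild type (0.22 ± 0.06, SE, adjusted p = 0.0025). On the TPM scale that value was 0.08 and not called, whereas cytoplasmic CELF1 was called lower by TPM in AGO2, AGO1/2 and AGO1/2/3 cells (-0.31, -0.58 and -0.33) where counts gave -0.08, -0.09 and 0.02. Among these values the size and the call of CELF1 depended on the scale, and the sign differed in AGO1/2/3 cytoplasm. Its AGO1/2 interaction by counts (0.23 ± 0.08, SE, adjusted p = 0.026) was lost without any one of 4 libraries, namely nuclear wild-type passage 29, nuclear AGO1/2 passage 10, cytoplasmic wild-type passage 28 and cytoplasmic AGO1/2 passage 9 (0.16 to 0.21), and by TPM it was 0.66.

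**Figure D2:**
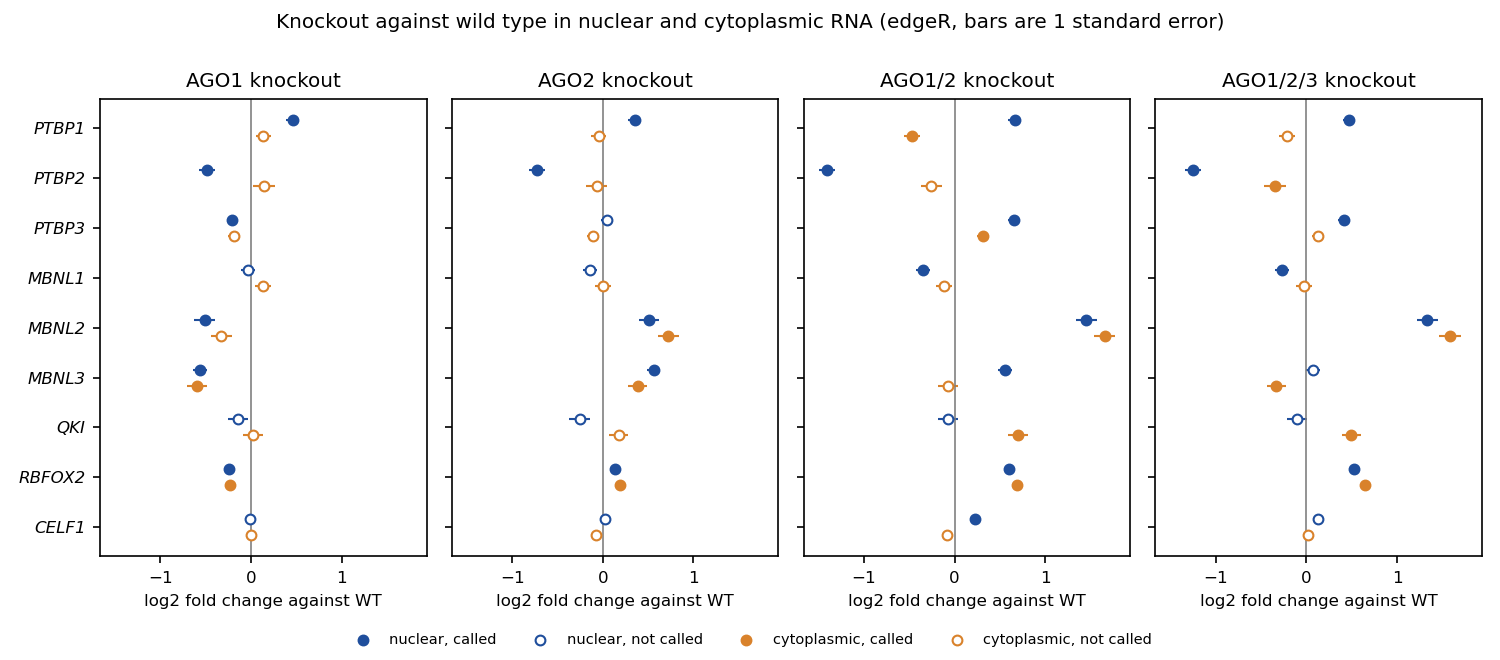
Log2 fold change of each regulator against wild type (x axis) for the 4 edited lines, by edgeR on counts. Blue points are nuclear and orange points cytoplasmic RNA, filled where the adjusted p was at most 0.05, and horizontal bars are 1 standard error; PTBP2 falls in nuclei of all 4 lines (-0.48 to -1.41), and MBNL2 rises most where both AGO1 and AGO2 were edited (1.33 to 1.66).

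Counted over the 9 genes, 6 members were called in AGO1 nuclei (1 higher and 5 lower), 5 in AGO2 nuclei (4 and 1), 8 in AGO1/2 nuclei (6 and 2) and 6 in AGO1/2/3 nuclei (4 and 2). The same test called 29.9%, 40.2%, 67.6% and 58.6% of 18919 nuclear genes. In cytoplasm 2, 3, 5 and 5 members were called in the 4 lines (0 and 2, 3 and 0, 4 and 1, and 3 and 2 higher and lower), against 12.4%, 16.1%, 49.2% and 38.7% of 17605 genes. The median log2 fold change of the members was 0.56 in AGO1/2 nuclei and 0.13 in AGO1/2/3 nuclei, where that of all genes was -0.06 and -0.03, and -0.07 and 0.02 in the cytoplasm of these lines. With most nuclear genes called in AGO1/2 and AGO1/2/3 cells, a call alone does not set the members apart, and the values of each gene carry the description. The line with the added AGO3 edit was also compared with AGO1/2 cells. AGO1/2/3 against AGO1/2 nuclei called 2 members (PTBP3 and MBNL3, both lower) with 3.48% of all genes, and the PTBP3 call (-0.24) was lost without any one of 5 of the 6 libraries compared (-0.26 to -0.19). The cytoplasmic comparison called 0 members by edgeR, with 3 at an unadjusted p under 0.05 and 2 called by DESeq2, against 4.95% of all genes. AGO2 against AGO1 cells called 5 members in nuclei and 3 in cytoplasm (MBNL2, MBNL3 and RBFOX2, higher in both), against 26.4% and 26.1% of genes, and the nuclear PTBP2 call (-0.25) was lost without any one of the 6 libraries compared (-0.29 to -0.18). These comparisons share libraries with those against wild type. The knockout effect differed between fractions for 0, 1, 6 and 4 members in the AGO1 and AGO2 lines and the AGO1/2 and AGO1/2/3 lines, where 0.662%, 5.76%, 36.5% and 22.7% of 20104 genes did. For AGO1, 2 members had an unadjusted p under 0.05 and DESeq2 called 1. With each culture taken as a block, the counts were 2, 4, 9 and 8, where passages paired clearly only in wild-type cells.

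The other regulators of tissue-type splicing gave a list of 31 genes, of which 21 passed the filter in nuclei and 20 in cytoplasm. In AGO1/2/3 nuclei 6 were higher and 6 lower, and in AGO1/2/3 cytoplasm 4 and 5, where 58.6% and 38.7% of all genes were called. RBM24, a muscle splicing factor, went from a mean of 3.80 CPM in wild-type to 15.1 in AGO1/2/3 nuclei (1.98 ± 0.18, SE, adjusted p = 2.4e-07) and was also higher in cytoplasm (1.64). ESRP1, which sets epithelial splicing, went from 210.5 to 64.5 CPM (-1.71 ± 0.17, SE, adjusted p = 7.2e-07), with -1.94 in cytoplasm. KHDRBS3 was lower (-0.98) and RBPMS, a smooth muscle splicing regulator, higher in nuclei (0.66), and in cytoplasm RBPMS was higher (0.76) and RBM47, an epithelial factor, lower (-0.77). The list as a whole held 6, 12 and 15 called genes in AGO1, AGO2 and AGO1/2 nuclei and 6, 5 and 10 in cytoplasm, where 29.9%, 40.2% and 67.6% of all nuclear and 12.4%, 16.1% and 49.2% of all cytoplasmic genes were called, with medians between -0.16 and 0.0039 in nuclei and between -0.15 and 0.06 in cytoplasm. Of the PTBP1 partners, RAVER1 was higher in nuclei of all 4 lines (0.65, 0.73, 1.11 and 0.81), as was HNRNPL (0.47, 0.29, 0.56 and 0.48), and HNRNPL was lower in AGO1/2 cytoplasm (-0.56). RAVER2 was higher in both fractions of AGO1/2 (0.36 and 0.35) and AGO1/2/3 cells (0.21 and 0.35). MATR3 is listed under 2 gene identifiers whose reads may be shared, and in AGO1/2 cytoplasm their values were -0.79, called, and -0.19, not called.

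Within the members, transcript classes differed between genotypes in nuclear RNA. Class shares are percentages of a gene's TPM in transcripts that the annotation marks as protein-coding, retained intron, nonsense-mediated decay or without a defined coding sequence, and they rest on Salmon's division of shared reads among transcripts. The exact permutation test of 3 libraries against 3 cannot give a p below 0.1, and over the 339 class comparisons made no adjusted p fell below 0.201, so separation of the groups is given instead. RBFOX2 gave the widest shift in the retained-intron class. Its nuclear share was 23.9%, 27.3% and 28.9% in wild-type libraries, ordered from lowest, 16.5%, 17.2% and 18.1% in AGO2, 7.47%, 8.76% and 9.76% in AGO1/2 and 11%, 11.8% and 11.9% in AGO1/2/3 nuclei. The wild-type group lay above each of these without overlap, while in cytoplasm the share was at most 1.43% in every library. PTBP1 went from 13.8% ± 1.65 (SD, n = 3) in wild-type to 6.90% ± 0.77 in AGO1/2 nuclei, CELF1 from 14.3% ± 1.82 to 5.24% ± 0.704, QKI from 12.2% ± 0.91 to 1.60% ± 2.77 and MBNL1 from 6.99% ± 0.472 to 3.77% ± 0.801. PTBP2 was the exception, with 34.3% ± 8.81 in wild-type and 31.0% ± 3.42 in AGO1/2 nuclei, and overlapping groups. Of the 6 members with a retained-intron transcript, 4, 5, 5 and 5 had a lower nuclear share without overlap in the AGO1 and AGO2 lines and the AGO1/2 and AGO1/2/3 lines. The same held for 23.6%, 38.1%, 68.1% and 59.2% of 6756 genes, whose median change was -1.81, -3.40, -7.88 and -6.34 percentage points, and retained-intron transcripts took 5.87% ± 0.52 of all nuclear TPM in wild-type and 3.71% ± 0.05 in AGO1/2 libraries (SD, n = 3). The members' shift thus ran with one that covered most of these genes in the lines lacking AGO1 and AGO2, and its part in the members' values was not tested.

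In MBNL1 the nuclear share of transcripts without a defined coding sequence was lower, and that of protein-coding transcripts higher, in every edited line without overlap. The first changed by -21.7 and the second by 25.0 percentage points in AGO1/2 nuclei. Transcripts without a defined coding sequence took 43.9%, 45.4% and 46.0% of MBNL1 TPM in the wild-type nuclear libraries, 22.3%, 23.4% and 24.3% in AGO1/2 and 24.8%, 26.8% and 26.9% in AGO1/2/3 nuclei, and neither edited group overlapped wild type. Protein-coding transcripts of MBNL1 gave 46.0, 59.8 and 63.6 TPM in wild-type and 42.9, 52.1 and 54.1 in AGO1/2 nuclei, which overlapped, whereas the transcripts without a defined coding sequence gave 44.8, 54 and 60.2 and 14.7, 16.2 and 16.7 TPM, which did not. For MBNL2 the nonsense-mediated decay class went from 38.6%, 39.1% and 45.9% in wild-type to 25.8%, 26.3% and 29.9% in AGO1/2 nuclei, while its level was 7.49, 8.57 and 9.67 TPM in the wild-type libraries and 14.6, 16.1 and 16.6 TPM in the AGO1/2 libraries. Its coding transcripts went from 10.1, 11.6 and 15.4 to 37.9, 41.9 and 46.7 TPM, so both classes were higher and the coding class more so. PTBP1 coding transcripts went from 85.0, 101 and 118 TPM in wild-type to 152, 167.1 and 181 in AGO1/2 nuclei and from 104, 137 and 142 to 62.9, 69 and 74.1 in cytoplasm, without overlap in either fraction and in opposite directions.

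QKI transcripts differ in their last exons, which give proteins with different C-terminal ends. Shares here are of the TPM of QKI transcripts with an annotated stop codon. That total leaves out retained-intron transcripts, which held 12.2% of all QKI TPM in wild-type and 1.60% in AGO1/2 nuclei. The stop codon at chr6:163570708 is shared by 3 transcripts of up to 341 codons (QKI-5, the nuclear isoform). It took 52.7%, 52.9% and 58.4% of that total in wild-type nuclei, 64.2%, 64.6% and 65.0% in AGO1/2 and 62.3%, 63.5% and 68.9% in AGO1/2/3 nuclei. Its share was higher than wild type without overlap in both lines. The stop at chr6:163563743 (1 transcript of 319 codons) went the other way, taking 16.1%, 17.4% and 20.4% in wild-type nuclei, 4.12%, 4.59% and 5.56% in AGO1/2 nuclei and 5.53%, 6.59% and 7.19% in AGO1/2/3 nuclei. A further stop at chr6:163565969 took 24.7% in wild-type, 29.0% in AGO1/2 (no overlap) and 28.1% in AGO1/2/3 nuclei (overlap). The nonsense-mediated decay class held 18.2% of all QKI TPM in wild-type nuclei. It held 26.0% in AGO1/2 and 23.1% in AGO1/2/3 nuclei, both without overlap, while in cytoplasm these lines overlapped wild type. In cytoplasm the QKI-5 stop took 76.5% ± 2.35 in wild-type and 79.9% ± 1.88 in AGO1/2 cells (SD, n = 3), where the groups overlapped.

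**Figure D3:**
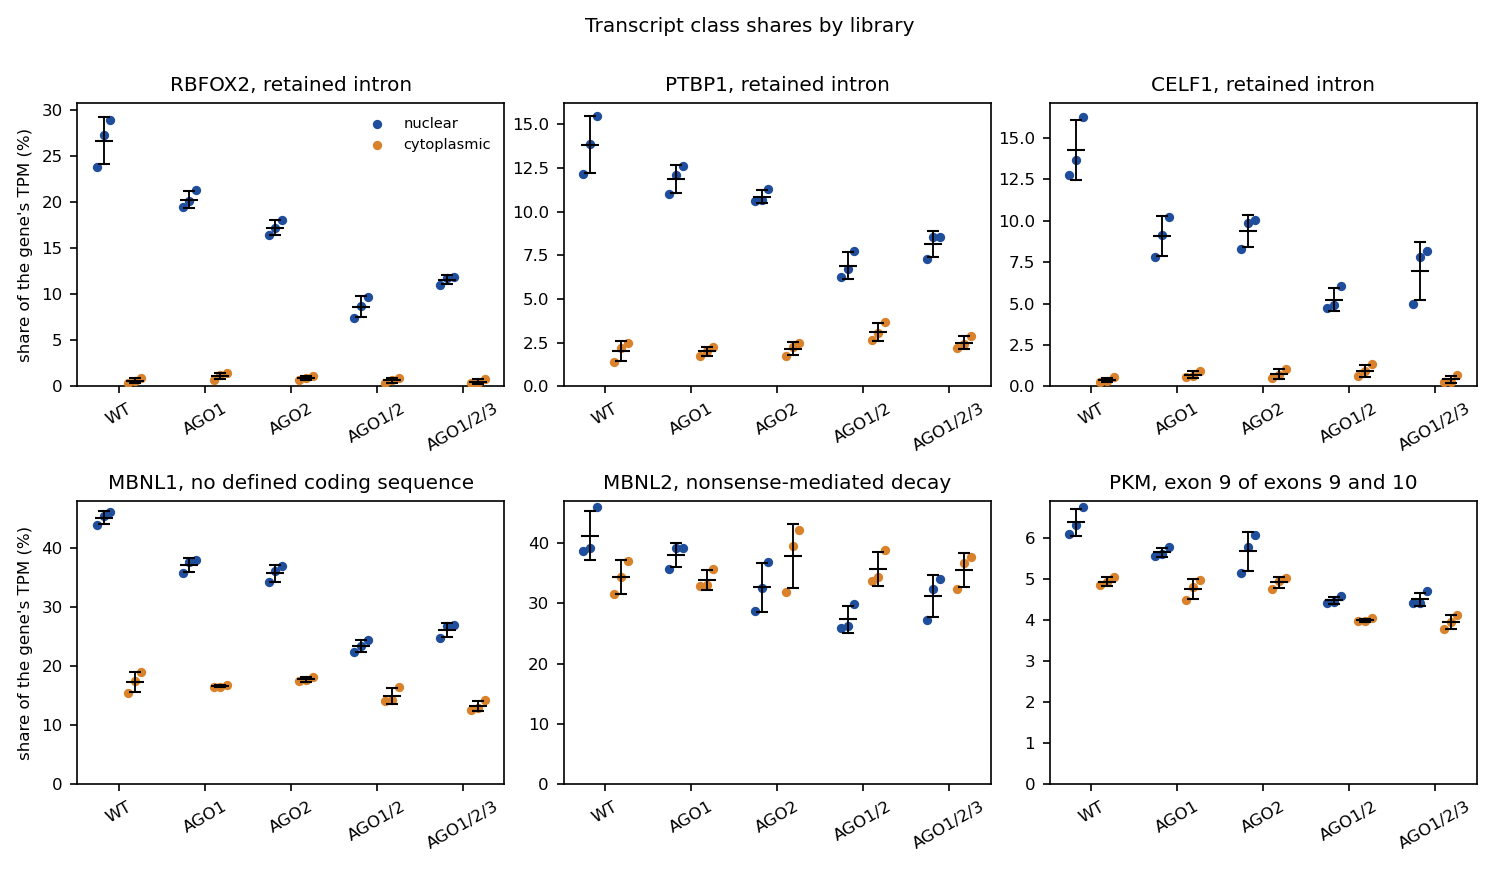
Share of a gene's TPM in one transcript class (y axis, percent) by genotype (x axis), for 5 regulators and for exon 9 of PKM, in nuclear (blue) and cytoplasmic (orange) RNA. Points are the 3 libraries of a group sorted from low to high, with the mean and SD as bars; the nuclear retained-intron shares of RBFOX2, PTBP1 and CELF1 and the noncoding share of MBNL1 are lowest in AGO1/2 and AGO1/2/3 cells.

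Inclusion of the members' own exons was taken as the share of TPM in transcripts that hold the exon, over those that hold it or skip it between the same neighbours. Of 46 skipped-exon events in the 9 genes, 39 passed the expression minimum in nuclei and 38 in cytoplasm. In nuclei 0, 0, 5 and 1 of them were called in the AGO1 and AGO2 lines and the AGO1/2 and AGO1/2/3 lines (limma, with the adjusted p at or below 0.05 and inclusion moved by 10 percentage points or more), where 0.092%, 0.391%, 4.65% and 2.94% of 21744 events were. In cytoplasm 0 were called in any line, against 0.116%, 0.206%, 1.54% and 0.678% of 19904 events. The count of 5 in AGO1/2 nuclei was 3 without AGO1/2 passage 9, 2 without AGO1/2 passage 10, 3 without wild-type passage 28 and 4 without wild-type passage 29. At an unadjusted limma p under 0.05 there were 4, 7, 13 and 8 member events in nuclei and 4, 6, 9 and 8 in cytoplasm, which is out of 39 and 38. Over all events 13.3%, 15.5%, 28.2% and 22.9% were under it in nuclei and 12.5%, 15.9%, 27.9% and 20.1% in cytoplasm.

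QKI was the one member with an exon called in both lines. Its 117 nt exon was included at 90.3, 90.7 and 88.2% in wild-type nuclei, 69.6, 69.7 and 72.6% in AGO1/2 and 79.5, 74.5 and 67.3% in AGO1/2/3 nuclei, with no overlap. Inclusion changed by -19.1 points (adjusted p = 0.00026) and -16.0 points (adjusted p = 0.0012), and both calls held with any single library left out. The AGO2 value of -8.5 points (adjusted p = 0.056) was under 10 points, and cytoplasmic inclusion was 70.0% ± 3.29 in wild-type and 66.6% ± 1.54 in AGO1/2 cells (SD, n = 3), not called. In MBNL2 the 54 nt exon went from 46.0, 50.8 and 45.6% in wild-type to 36.7, 34.5 and 32.9% in AGO1/2 nuclei, a change of -12.7 points (adjusted p = 0.013). Its 36 nt exon went from 73.8, 83.0 and 72.6% to 64.4, 56.5 and 57.4%, a change of -17.1 points (adjusted p = 0.017), in the event with 1 pair of neighbouring exons, while in a second event with other neighbours it was 6.2% ± 2.11 and 5.5% ± 2.95 (SD, n = 3). The 36 nt call was lost without AGO1/2 passage 10 or 11 or wild-type passage 28 (-13.8 to -16.0 points). The 36 nt exon of MBNL1 moved the opposite way, from 75, 76.4 and 70.9% to 86.7, 86.3 and 81.2%, a change of 10.6 points (adjusted p = 0.019), which was lost without AGO1/2 passage 9 or 10 or wild-type passage 29 (9.04 to 9.84 points). This exon also has 2 annotated events with different neighbours, and only the one given here was called. A 963 nt exon of MBNL1 (chr3:152299405-152300367), of which no coding transcript has the whole length as coding sequence, also changed in AGO1/2 nuclei, by 12.6 points (adjusted p = 0.022), and was lost without AGO1/2 passage 9 or 10 or wild-type passage 28 or 29 (9.30 to 12.9 points). The 54 nt exon of MBNL1 stood at 30.7, 33.3 and 31.7% in wild-type and 24.3, 23.3 and 24.6% in AGO1/2 nuclei, -7.8 points (adjusted p = 0.05), short of the 10 points.

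The 34 nt exons of the PTB family were not called in any line. That of PTBP2, whose skipping gives the decay form, was included at 71.5, 69.5 and 73.9% in wild-type nuclei and 48.8, 52.5 and 45.8% in wild-type cytoplasm, and at 61.4, 66.6 and 66.9% in AGO1/2 nuclei (-6.7 points, adjusted p = 0.14). The nuclear value lay above the cytoplasmic one in wild-type cells without overlap. The nonsense-mediated decay class took 19.3% of PTBP2 TPM in wild-type, 24.5% in AGO2 and 25.0% in AGO1/2 nuclei, both higher without overlap. AGO1 (20.6%) and AGO1/2/3 nuclei (21.6%) overlapped wild type. In cytoplasm this class went from 43.4% in wild-type to 55.8% in AGO1/2 cells without overlap, and the other lines overlapped wild type. For PTBP1 the exon was near full inclusion, 96.6, 95.8 and 98.1% in wild-type and 97.9, 98.0 and 98.2% in AGO1/2 nuclei. The 78 nt exon of PTBP1, which alters the linker between RNA-binding domains, stood at 57.4% ± 2.15 and 55.3% ± 2.53 (SD, n = 3). An exon of 34 nt in PTBP3 (chr9:112330441-112330474) matched the list by gene and length alone. It shares 17.6% and 14.7% of positions with those of PTBP1 and PTBP2, is not their counterpart, and was included at 3.0% ± 0.43 in wild-type nuclei.

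**Figure D4:**
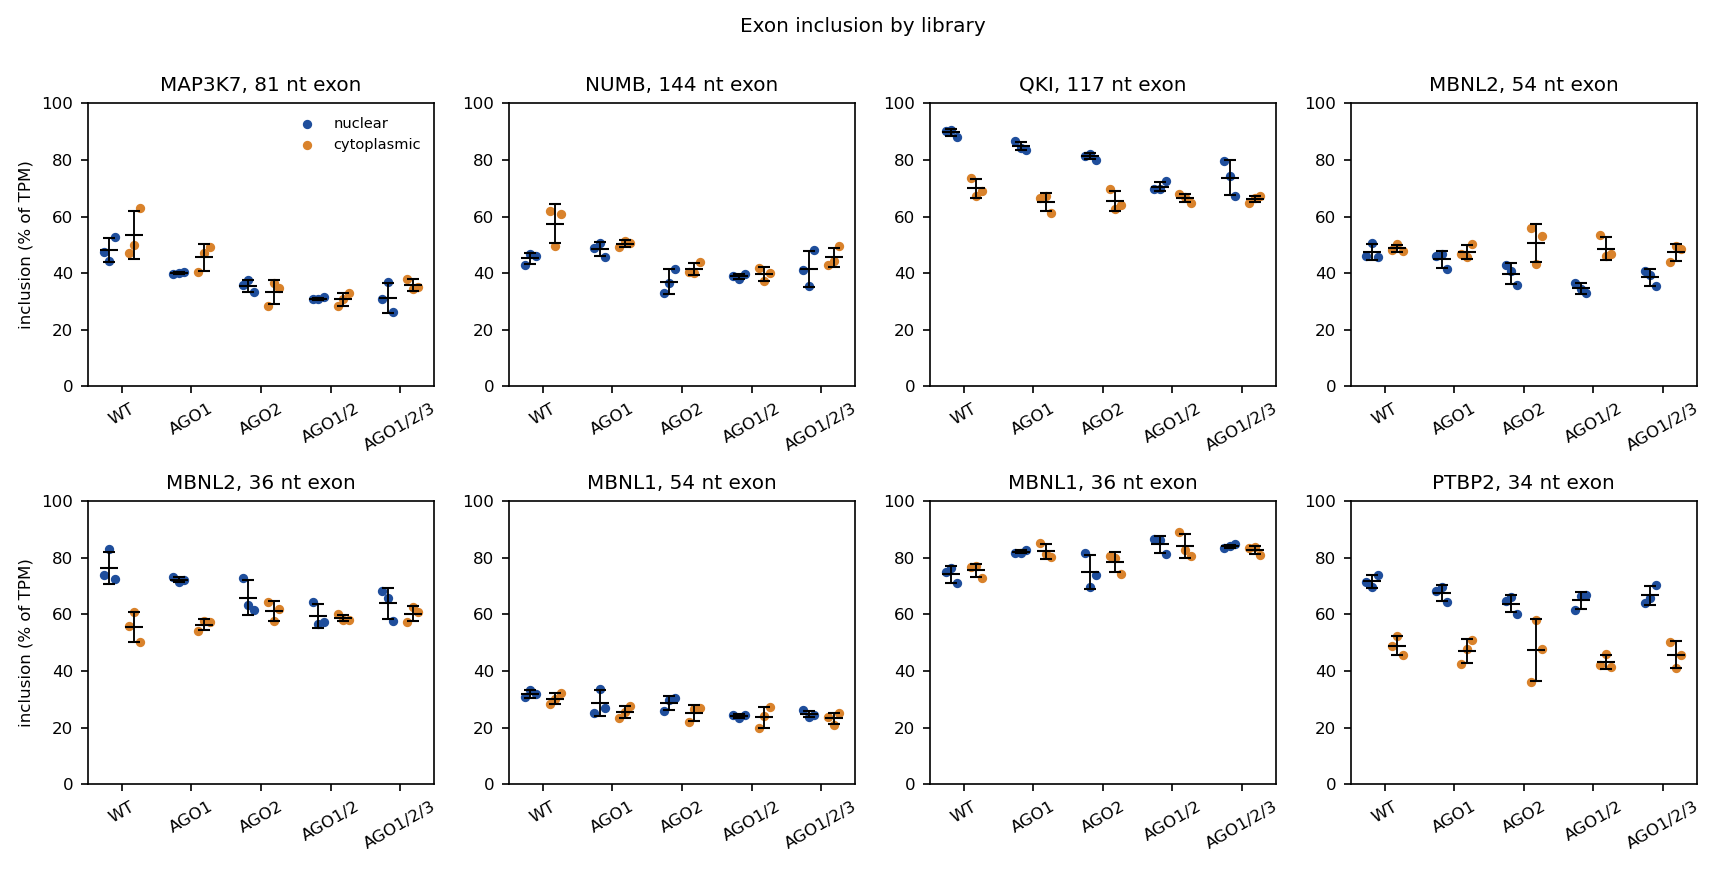
Inclusion of 8 exons (y axis, percent of TPM in transcripts that hold the exon over those that hold or skip it) by genotype (x axis) in nuclear (blue) and cytoplasmic (orange) RNA. Points are libraries, and bars the mean and SD of 3; the MAP3K7 exon falls in AGO1/2 and AGO1/2/3 cells in both fractions, the QKI 117 nt exon falls in the nuclei of these lines, and the PTBP2 34 nt exon lies higher in nuclei than in cytoplasm.

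Target exons known to respond to these regulators were listed for 11 genes, and 10 had an annotated event, all of which were tested. In nuclei 0, 0, 1 and 1 were called in the AGO1 and AGO2 lines and the AGO1/2 and AGO1/2/3 lines, and 0, 2, 2 and 1 in cytoplasm. Over all events tested 0.092%, 0.391%, 4.65% and 2.94% were called in nuclei and 0.116%, 0.206%, 1.54% and 0.678% in cytoplasm. The exon of MAP3K7 accounted for most. It was included at 47.4, 44.2 and 52.7% in wild-type nuclei, 30.8, 30.9 and 31.5% in AGO1/2 and 31.0, 36.7 and 26.2% in AGO1/2/3 nuclei. In cytoplasm the values were 47.3, 50.1 and 63.1% in wild-type, 28.3, 30.9 and 33.1% in AGO1/2 and 38.1, 34.3 and 35.2% in AGO1/2/3 cells. No library of these 2 lines reached the lowest wild-type one in either fraction. The nuclear changes were -17.1 points (adjusted p = 0.0046) and -16.8 points (adjusted p = 0.008), and the cytoplasmic ones -22.7 points (adjusted p = 0.0036) and -17.6 points (adjusted p = 0.032). AGO2 cytoplasm was also called at -20.2 points (adjusted p = 0.043), but that call was lost without any one of the 3 AGO2 libraries or wild-type passages 28 or 29 (-15.4 to -21.9 points), and the AGO1/2/3 cytoplasmic call without any one of its own 3 libraries or wild-type passage 29 (-12.8 to -18.7 points). NUMB, an adaptor of Notch signalling, had its alternative exon (chr14:73279281-73279424, - strand) included at 62.0, 49.6 and 61.1% in wild-type and 41.9, 37.1 and 40.0% in AGO1/2 cytoplasm, a change of -17.9 points (adjusted p = 0.0052). The AGO2 cytoplasmic change of -16.1 points (adjusted p = 0.047) was lost without any one of the 3 AGO2 libraries or wild-type passages 27 or 29 (-13.9 to -17.4 points), and no nuclear change was called (-6.4 points in AGO1/2).

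The other 8 target exons were not called, and 7 of them are described here. In CD46 the AGO1/2 change was 9.0 points (adjusted p = 0.003) in cytoplasm and -8.6 points (adjusted p = 0.036) in nuclei, both short of 10 points. CTTN (5.5 points in AGO1/2 nuclei), ENAH (-4.9), NFIX (-3.8), ADD3 (-2.0), INSR (-2.5) and FAS (-7.0) gave no nuclear adjusted p of at most 0.05 in this line. PKM, whose mutually exclusive exons 9 and 10 are set by PTBP1 in favour of exon 10, was followed as the share of exon 9 (chr15:72203022-72203188) over both. It was 6.11%, 6.33% and 6.76% in wild-type nuclei, 4.42%, 4.46% and 4.59% in AGO1/2 and 4.42%, 4.42% and 4.71% in AGO1/2/3 nuclei. In cytoplasm the means were 4.95% ± 0.103, 4.01% ± 0.0397 and 3.96% ± 0.168 (SD, n = 3), and the wild-type group lay above both lines without overlap in each fraction. Whether the RNA levels of the regulators bear on these exons was not tested, and protein levels were not measured in these libraries.

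Short motifs were searched in the 200 bases of intron on each side of the exons, on the transcript strand only. TGCATG, the RBFOX motif, was found in 5.90% of upstream and 7.02% of downstream windows of the 21744 nuclear events, ACTAAC or ACTAAT, the core bound by QKI, in 6.77% and 6.82%, and CTCTCT, a PTB motif, in 12.0% and 8.35%. The 36 nt exons of MBNL1 and MBNL2 each had TGCATG just upstream, 8 and 7 bases from the exon, within the flanks printed above. The 54 nt exon of MBNL2 had 1 TGCATG upstream (172 bases away) and 1 downstream (26 bases), and that of MBNL1 1 upstream (178 bases). The PTBP2 34 nt exon had CTCTCT 38 bases upstream and 2 TGCATG downstream, the nearer at 159 bases, and the PTBP1 exon 1 TGCATG downstream (187 bases). The QKI 117 nt exon had none of the 3 motifs in either window. The MAP3K7 exon had 3 TGCATG upstream, the nearest 26 bases away, and 1 downstream, 112 bases from the exon, shown here in capitals in the first bases of the downstream intron (chr6, - strand).
MAP3K7 downstream intron: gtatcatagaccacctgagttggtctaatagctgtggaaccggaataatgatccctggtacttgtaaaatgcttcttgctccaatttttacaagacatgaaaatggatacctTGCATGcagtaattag
A match of 6 letters is a description of the window and not a measured binding site.

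Argonaute proteins act in cytoplasm through microRNAs, which pair by bases 2 to 8, the seed, with sites in 3′ untranslated regions. Mature sequences for 11 of 12 listed microRNAs were found in the RefSeq table. The 4 whose sites are printed below are given with the seed in capitals, and none share a seed.
hsa-miR-16-5p: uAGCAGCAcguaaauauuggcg
hsa-miR-30a-5p: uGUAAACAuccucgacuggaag
hsa-miR-133a-3p: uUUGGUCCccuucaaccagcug
hsa-miR-200b-3p: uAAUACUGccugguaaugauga
MBNL2, which rose most, held 2 seed matches in a 3′ untranslated region of 2671 nt, against a median of 3 in genes of like length. They are shown with 8 bases on either side (hg38), at chr13:97391496-97391502 for hsa-miR-16-5p and chr13:97392618-97392624 for hsa-miR-30a-5p.
MBNL2, miR-16 match: gaagctagTGCTGCTatctcata
MBNL2, miR-30a match: tttaatgtTGTTTACttttttaa
RBFOX2 held 3 matches in 5469 nt (median 6). Those at chr22:35739560-35739566, printed here, and chr22:35738955-35738961 are for hsa-miR-200b-3p, a microRNA of epithelial cells. PTBP2, which fell in nuclei, held 1 in 1644 nt (median 2), at chr1:96814438-96814444 for hsa-miR-133a-3p, a microRNA of muscle.
RBFOX2, miR-200b match: tctgttcaCAGTATTtgtgtgtg
PTBP2, miR-133a match: accaggtgGGACCAAagtttatg
The others held 3 (PTBP1, median 1), 4 (PTBP3, 6), 2 (MBNL1, 4), 11 (MBNL3, 10), 8 (QKI, 8) and 10 (CELF1, 7). Single microRNAs had a match in 8.41% to 24.3% of 13491 genes, so the members' matches are a description only.

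The protein-coding genes whose levels ran most like each member were found by Pearson's r of log2 CPM over the 15 nuclear and the 15 cytoplasmic libraries, taking the lower of the 2 values. These r rest on 5 clusters of 3 libraries that share genotype and clone, and are given as a description with no test. MBNL2 and RBFOX2 ran with each other (r = 0.98 and 0.98), beside ABR (0.99 and 0.99) for MBNL2 and TIMP2 (0.99 and 0.99) for RBFOX2. PTBP1 ran with EIF4A1, SF1 and SRP68, the first at 0.97 and 0.98. For PTBP2 the genes were ZNG1E, DTWD1 and CEP152 (0.95 and 0.93 for the first) and for PTBP3 LPGAT1, RAB10 and CADM4 (0.97 and 0.97). MBNL1 (AGAP6, PRPF39 and SRSF10, 0.89 and 0.87), MBNL3 (SLC6A6, CXXC5 and STK26, 0.89 and 0.89) and CELF1 (G3BP1, VCPIP1 and WAPL, 0.90 and 0.87) had looser neighbours, and those of QKI (PTPRN2, ANKRD13C and VEZT, 0.77 and 0.79) were the loosest. PTBP1 and PTBP2 themselves had r of -0.80 in nuclei and 0.70 in cytoplasm.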

How the data were processed

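HCT116 cells of 5 genotypes were lysed in a hypotonic detergent buffer, the supernatant was taken as cytoplasm, and total RNA of both fractions was depleted of ribosomal RNA and sequenced with strand kept (30 libraries). Per the labels, the authors aligned reads to hg38 and deposited one Salmon table a library, holding estimated counts (reads assigned to each transcript, not whole numbers) and TPM (scaled for transcript length and to the same total in each library). The submitters' processing notes name STAR 2.5.3a and Salmon 0.11.0. The 8 eCLIP samples were not used.

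Of 200401 transcripts, 195887 matched GENCODE v44 by identifier (58425 genes), and the 4514 others, with 2.23% to 4.01% of reads, were left out. Of the 132 member transcripts 118 had the same length in both. Estimated counts were summed per gene and rounded. Genes were tested with edgeR 4.0.16 (quasi-likelihood test, TMM scaling, low-count filter) in R 4.3.3, the 15 libraries of a fraction in one fit for genotypes and all 30 for fractions and interactions, with Benjamini-Hochberg adjustment over all genes and a threshold of 0.05. Fold changes are the first group named over the second. Skipped exons (39194 in the annotation) were tested with limma 3.58.1 on log2 of inclusion over skipping TPM with 0.1 TPM added, at a mean of at least 1 TPM. Class shares of 3 against 3 libraries were tested by the exact two-sided permutation test, whose smallest p is 0.1. All splits among transcripts of a gene depend on how Salmon assigned shared reads and on the annotation. Retained-intron genes had a mean of at least 1 TPM and a share of at least 1%.

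The values of 1 listed target exon are not reported here. The members, gene lists and exon lists were chosen with earlier results of these data known. Named genes are the members, the Argonaute genes, the 4 most changed other regulators called in AGO1/2/3 RNA of each fraction, the listed partners and exons, and 3 protein-coding genes most like each member. Libraries of a group are passages of 1 line, and nothing states that they are otherwise independent, so p-values measure the spread between passages. All replicate pairs differed by more than sampling noise. Nuclear and cytoplasmic libraries of the same genotype and passage were judged to share a culture for wild-type cells, where every passage correlated with itself at 0.35 to 0.65 in its deviations. In the edited lines the same correlation was 0.0040 to 0.50, over 0.1 at every passage in none of the 4 lines. The main fits did not use this pairing and treated all libraries as independent, in the ratios between fractions and the interactions too. The replicate block was an alternative that paired the fractions in every genotype. Scripts were tested on simulated data with 200 changed genes or exons and a set spread, which can differ from that of the libraries. For AGO1/2 nuclei 28% of 1.5-fold and 92.5% of 2-fold gene changes were recovered, and for the AGO1/2 interaction 3.5% and 59.5%. Of the simulated exon changes 53% were recovered. A value not called is thus not shown to be unchanged. Alternatives were DESeq2 1.42.0, RLE scaling, no filter, limma on log2(TPM + 1), a replicate block, other exon settings and each library left out in turn.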

Additional observations from a re-analysis of the deposited data

Results flagged for a closer look

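Each result here is a member whose knockout effect differed between nuclear and cytoplasmic RNA by the interaction test of edgeR, given as nuclear minus cytoplasmic log2 fold change. In AGO2 cells PTBP2 gave -0.66. In AGO1/2 cells PTBP1 gave 1.06, PTBP2 -1.23, PTBP3 0.26, MBNL3 0.55, QKI -0.85 and CELF1 0.23. In AGO1/2/3 cells PTBP1 gave 0.60, PTBP2 -0.99, QKI -0.68 and RBFOX2 -0.21. On the log2(TPM + 1) scale PTBP1 (1.44 and 0.69) and PTBP2 (-0.58 and -0.61) were also called in AGO1/2 and AGO1/2/3 cells, QKI was not called in either (-0.14 and -0.34), and RBFOX2 was called in AGO1/2 cells with the opposite sign to its count value (0.23). In AGO1/2 and AGO1/2/3 cells 36.5% and 22.7% of all genes passed the same test.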

How the results depend on the processing

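Of 2187 log2 values of members recomputed under the alternatives, 1895 kept their direction and their side of the threshold, 92 came to pass it, 81 no longer passed it, and 24 changed sign with a call in at least 1 of the fits. Another 95 changed sign with no call in either, 24 of them on the TPM scale and 47 with a library left out. On log2(TPM + 1) with limma, 3 members were called in AGO1/2/3 nuclei, 3 in AGO2 against AGO1 nuclei, 4 in AGO1 cytoplasm and 5 between fractions in AGO1 cells, and 11 other regulators in AGO2 cytoplasm. DESeq2 called 4 members in AGO1 cytoplasm, 2 in AGO1/2/3 against AGO1/2 cytoplasm, and 1 and 2 interactions in AGO1 and AGO2 cells. Without the filter, 1 member was called in AGO1 cytoplasm, 3 in AGO1/2/3 cytoplasm and 1 interaction in AGO1 cells, as with RLE scaling (1). With the replicate block, which pairs the fractions of a culture, 2, 4 and 8 interactions were called in AGO1, AGO2 and AGO1/2/3 cells. A pseudocount of 1 TPM gave 2 called member exons in AGO1/2/3 nuclei and 1 each in AGO1 and AGO1/2 cytoplasm. With single libraries left out, member calls ranged from 1 to 3 in AGO1 and in AGO2 cytoplasm, 3 to 6 in AGO1/2/3 cytoplasm, 0 to 1 and 1 to 3 in AGO1/2/3 against AGO1/2 cytoplasm and nuclei, and 0 to 1 and 0 to 2 for the AGO1 and AGO2 interactions. Member exons ranged from 2 to 5 in AGO1/2 nuclei and 0 to 1 in AGO1/2 cytoplasm, and other regulators from 3 to 7 in AGO1 nuclei and 3 to 5 in AGO1 and in AGO2 cytoplasm. Among values called on either scale, the TPM scale reversed the sign of RBFOX2 in AGO2 nuclei (-0.21) and cytoplasm (-0.14), PTBP3 in AGO1/2 cytoplasm (-0.0055), CELF1 in AGO1/2/3 cytoplasm (-0.33) and RBFOX2 in the AGO1/2 interaction (0.23). Between fractions it reversed RBFOX2 (0.34, 0.31, 0.26, 0.57 and 0.17 in wild-type cells and then the lines in the order used above), MBNL1 (0.73, 0.35, 0.35, 0.40 and 0.14), CELF1 in wild-type, AGO1 and AGO1/2/3 cells (0.50, 0.45 and 0.69), PTBP1 in AGO1, AGO2 and AGO1/2/3 cells (0.086, 0.20 and 0.56), and MBNL3, PTBP3 and MBNL2 in AGO1/2 cells (0.38, 0.035 and 0.33). Between fractions the median of all genes was itself 0.29, 0.24, 0.27, 0.48 and 0.30 by TPM in that order. Relative to it, PTBP1 in AGO1 and AGO2 cells and MBNL1, MBNL2, MBNL3 and PTBP3 in AGO1/2 cells stayed lower, as by counts. So did RBFOX2 in AGO2 and AGO1/2/3 cells and MBNL1 in AGO1/2/3 cells, and the others between fractions lay above it. RBFOX2 in AGO2 nuclei and cytoplasm lay near the medians there (-0.17 and -0.13). The cause of these differences was not tested. Depth was lowest in wild-type nuclei, and the low PTBP2 and MBNL3 levels in cytoplasm limit their precision.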
